A study of Mus musculus with 40 samples.

Results

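Elastic fibers and the enzymes that crosslink them were followed through 10 genes: elastin (Eln), fibrillin-1 (Fbn1), the fibulins Fbln1, Fbln2, Fbln5 and Efemp1, and the lysyl oxidases Lox, Loxl1, Loxl2 and Loxl3. They were taken by gene name from 17646 genes listed for male hearts and 17223 listed for female hearts, and all 10 were found in both tables. Each was at or above 1.94 CPM in every library, so none entered the tests only through the group in which it was high. In hearts that expressed IL11 in cardiomyocytes, most of the set was higher than in control hearts at each week studied. Lox rose furthest, to between 12.2-fold and 26.1-fold of control, Efemp1 rose further between 1 and 6 weeks, and Fbln5 changed least of the 10 except in males at 6 weeks, where Fbn1 changed less.

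Elastic fibers have a core of crosslinked elastin laid on a scaffold of fibrillin microfibrils. Fibulins bind tropoelastin, fibrillin and lysyl oxidases and help to place elastin on that scaffold. Lysyl oxidases are copper enzymes that oxidize lysine side chains of elastin and fibrillar collagens, the first step of the crosslinks that make both insoluble; in the heart these fibers lie in vessel walls, valves and the interstitium.

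The hearts came from CM-Il11-Tg mice, which are heterozygous both for a tamoxifen-activated Cre driven by the cardiomyocyte promoter α-MHC (MerCreMer) and for a mouse Il11 transgene at Rosa26 that Cre switches on. Induced mice received tamoxifen from 8 weeks of age and were studied 1, 3 or 6 weeks later. The paper describes control mice as littermates matched for age that carried the MerCreMer allele and not the Il11 transgene. They also received tamoxifen, so Cre and the drug are shared by control and induced hearts. The uninduced group was CM-Il11-Tg without tamoxifen, and the labels call both the control and the uninduced hearts baseline samples. The labels give no week after tamoxifen for the control hearts, and a single control group of each sex stands against every induced week. The age of the controls at harvest and the time since their tamoxifen are thus not known here. Induced hearts of a later week came from older mice, so week and age cannot be told apart. Each sex had 5 groups of 4 hearts, except 3 male control and 3 male 6-week hearts, because 2 male libraries carry labels that contradict each other and entered no comparison. This left 38 of 40 libraries.

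Values are read counts that the authors scaled to library size (CPM), and the listed genes held 16663513 to 65333832 reads in a male library and 19147947 to 30929192 in a female library. Il11 was at 0 to 0.166 CPM in controls, 15.5 to 49.1 CPM in uninduced hearts and 328 to 819 CPM in induced hearts, so uninduced hearts already held Il11 transcript. The summed level of 6 cardiomyocyte markers was 45780 to 55580 CPM in male controls. At 1, 3 and 6 weeks it was 27100 to 47670, 34610 to 45470 and 27680 to 37070 CPM in males. Female controls had 29460 to 45960 CPM, and females at these weeks had 25040 to 38410, 30630 to 39030 and 26640 to 35210 CPM. The atrial genes Myl4 and Myl7 together reached 119 CPM in female 1-week replicate 2 and 729 CPM in female 6-week replicate 2, against at most 3.14 CPM in female controls. Female 1-week replicate 2 and female 6-week replicate 3 were each the highest of their group in 9 of the 10 genes, male control replicate 4 was the highest of its group in 9, and female 3-week replicate 2 was the lowest of its group in all 10. Results are given below with and without these libraries where they decide a call. Changes are log2 differences of CPM + 0.5 with their standard error (SE), tested with limma across all genes, and a gene was called at a Benjamini-Hochberg adjusted p under 0.05. Folds are on the same CPM + 0.5 scale, which slightly understates the change of low genes.

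In both sexes the whole set was higher than control by the first week after tamoxifen: all 10 genes were called higher in males and all 10 in females, where 18.9% and 15.3% of all genes tested were called higher. At 3 weeks 9 of 10 were called higher in each sex (13.2% and 16.8% of all genes), and at 6 weeks 9 in males and 10 in females (16.2% and 21.7%). None was called lower. The median log2 change of the 10 genes was 1.41, then 1.23, then 1.31 in males and 1.47, then 1.41, then 1.54 in females over the 3 time points, and the median over all genes tested lay between -0.02 and 0.02. At least 2-fold higher and called were 9, 7 and 6 of the 10 in males, beside 6.11%, 5.57% and 6.98% of all genes, and 8, 8 and 9 in females, beside 5.82%, 6.48% and 7.87%. The 3 weeks of a sex were compared with the same control hearts, so their agreement is not independent.

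**Figure D1:**
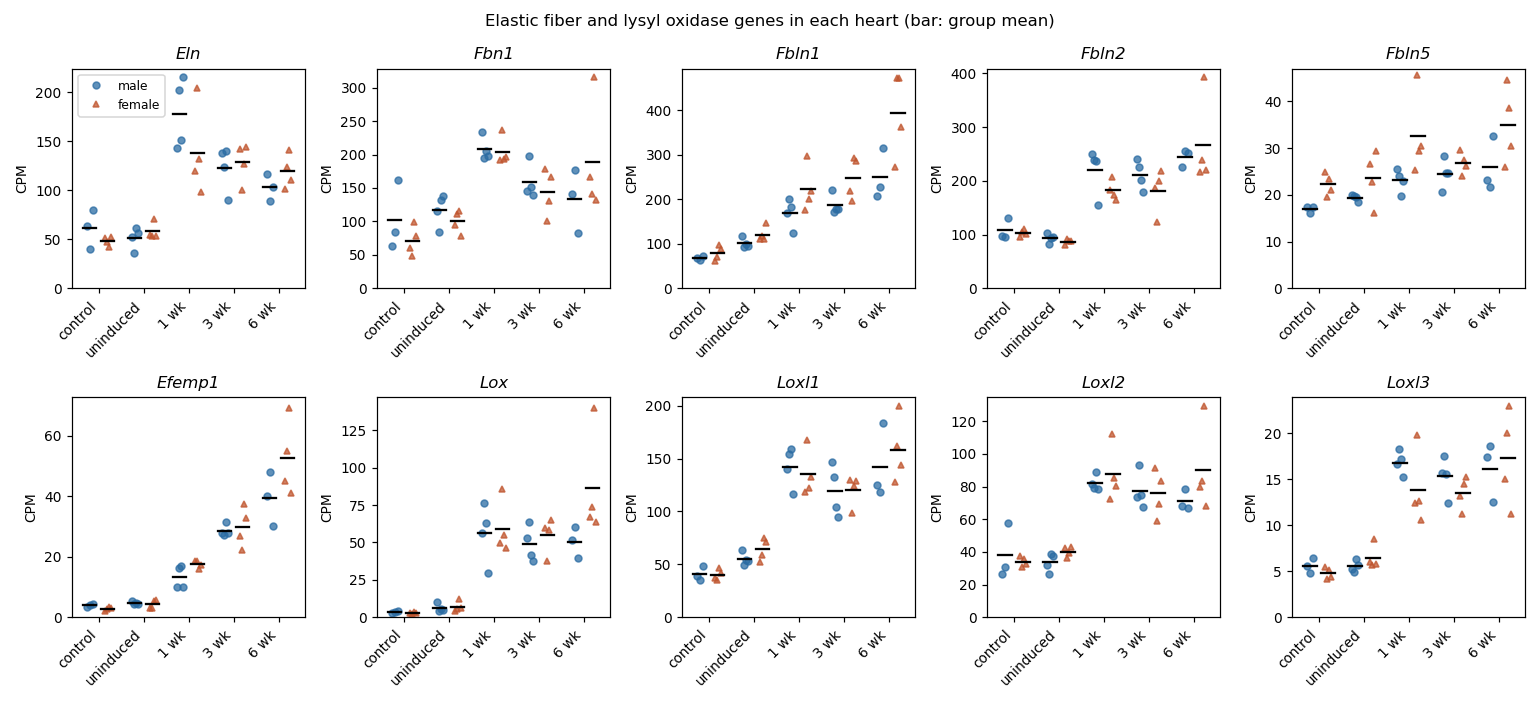
CPM of each of the 10 genes in every heart (blue circles, males; orange triangles, females) by group, with the mean of each group as a black bar and each vertical axis starting at 0. Lox and Efemp1 lie near the axis in controls (at most 3.97 and 4.41 CPM) and well above it after tamoxifen.

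Lox encodes the founding lysyl oxidase. Male controls had 2.89, 3.64 and 3.97 CPM of Lox, from 77 to 244 reads, and female controls had 2.84, 1.94, 3.40 and 2.60 CPM, from 40 to 68 reads. Male hearts had 56.4, 76.6, 63.2 and 29.8 CPM at 1 week, 52.8, 63.8, 41.6 and 37.8 CPM at 3 weeks, and 51.4, 60.3 and 39.9 CPM at 6 weeks. The lowest induced male heart was thus still far above the highest male control. Female hearts had 49.5, 85.6, 54.9 and 46.4 CPM at 1 week, 59.4, 37.4, 58.4 and 64.9 CPM at 3 weeks, and 67.3, 74.0, 140 and 63.6 CPM at 6 weeks, again with no overlap with controls. The change in males was 3.76 ± 0.29 (SE) at 1 week (13.6-fold, adjusted p = 9.2e-09), 3.61 ± 0.29 at 3 weeks (adjusted p = 1.6e-08) and 3.66 ± 0.31 at 6 weeks (adjusted p = 3.3e-08). In females it was 4.20 ± 0.29 (18.4-fold, adjusted p = 7.7e-10), 4.11 ± 0.29 (adjusted p = 7.8e-10) and 4.70 ± 0.29 (26.1-fold, adjusted p = 7.3e-11). Of 16956 genes tested in females, 0.189% had a larger rise than Lox at 6 weeks, and of 16931 in males 0.313%.

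Loxl1 (chr9:58195014-58220495, minus strand of GRCm39, the build of the gene spans given here but not of the promoter windows), a lysyl oxidase needed for elastic fiber upkeep in adult tissues, started higher and rose less. Male controls had 38.9, 35.0 and 48.6 CPM and female controls 37.1, 35.2, 46.7 and 42.1 CPM. Male 6-week hearts had 125, 118 and 183 CPM and female 6-week hearts 127, 162, 200 and 144 CPM, all above every control. The change was 1.79 ± 0.17 at 1 week (adjusted p = 2.2e-07), 1.53 ± 0.17 at 3 weeks and 1.77 ± 0.18 at the last time point for males, and 1.73 ± 0.15, 1.56 ± 0.15 and 1.95 ± 0.15 (adjusted p = 1.8e-09 at 6 weeks) in females.

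Loxl2 (chr14:69846209-69933283, plus strand), which also crosslinks basement membrane collagen, was at 26.6, 30.8 and 57.6 CPM in male controls and 30.8 to 37.5 CPM in female controls. Induced hearts ranged from 66.9 to 93.4 CPM in males and from 59.2 to 129 CPM in females. Male control replicate 4, at 57.6 CPM, came closest to the induced range. The change at 6 weeks was 0.96 ± 0.20 in males (adjusted p = 0.0016, and 0.069 when replicate number 3 was left out of every group) and 1.35 ± 0.17 in females (adjusted p = 2.0e-06). Loxl3 (chr6:83011152-83029543, plus strand), the lowest of the 4 lysyl oxidases per kb of exon after tamoxifen, was at 4.77 to 6.42 CPM in male controls and 4.11 to 5.47 CPM in female controls. It reached 12.5 to 18.6 CPM in males and 11.2 to 22.9 CPM in females at 6 weeks. Its change then was 1.44 ± 0.16 in males (adjusted p = 1.4e-06) and 1.72 ± 0.20 in females (adjusted p = 8.3e-07). Exons of Htra2 on the opposite strand overlap 25.3% of the exon bases of Loxl3, and exons of R3hcc1 overlap 17.1% of those of Loxl2. The strand setting of the counting is not stated, so reads of these pairs cannot be fully told apart. Htra2 differed from control at 6 weeks by 0.07 in males and 0.01 in females (adjusted p = 0.77 and 0.96), and R3hcc1 by -0.11 and 0.36 (adjusted p = 0.69 and 0.053), so neither was called.

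**Figure D2:**
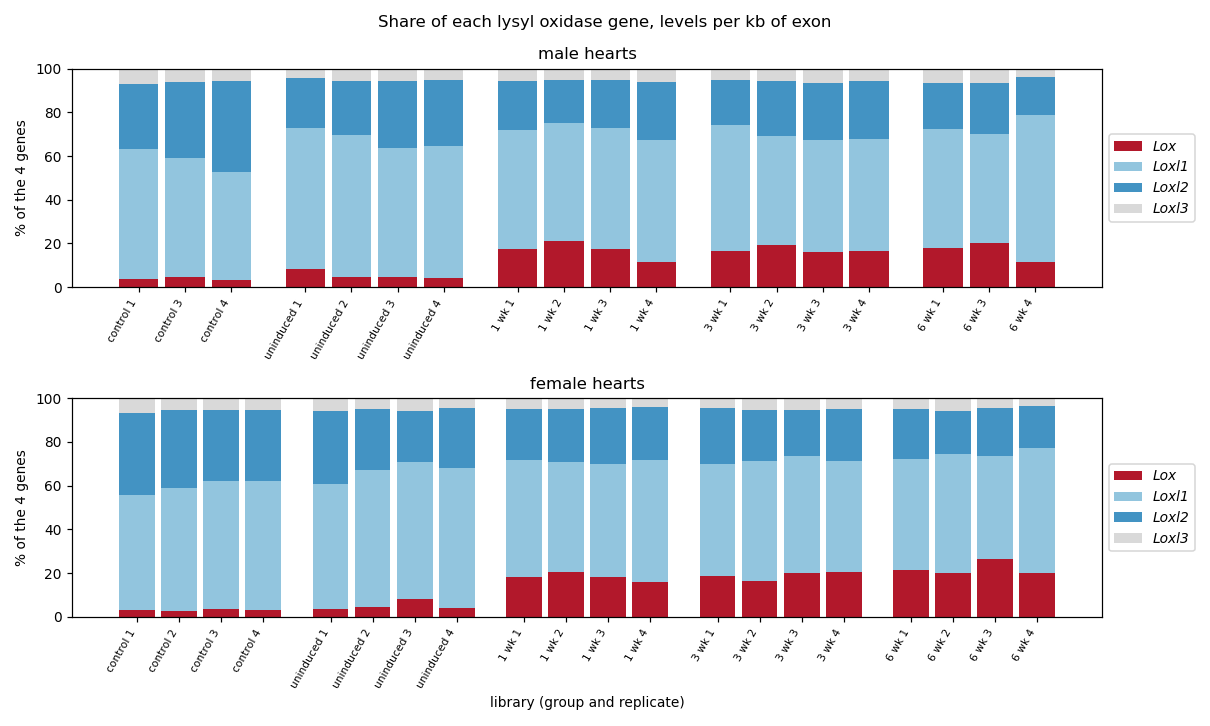
Share of each lysyl oxidase in the summed level per kb of exon of the 4 genes, for each library grouped by condition, males above and females below. Lox (red) takes between 2.49% and 4.56% of the sum in control libraries and between 11.4% and 26.5% in induced ones.

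The make-up of the lysyl oxidase family therefore differed between control and induced hearts. On levels per kb of exon, Lox was 3.79% ± 0.69 (SD, n = 3) of the summed level of the 4 genes in male controls and 17% ± 4.1, 17.2% ± 1.4 and 16.7% ± 4.4 at 1, 3 and 6 weeks. In females the share was 3.02% ± 0.41 (SD, n = 4) in controls and 18.2% ± 2.0, 19.0% ± 1.8 and 22% ± 3.1 after tamoxifen. No induced library fell in the range of its controls. Loxl2 had the opposite shift, from 35.2% ± 6.3 to 20.8% ± 3.0 at 6 weeks in males and from 34.5% ± 2.7 to 21.0% ± 1.6 in females, although its own level was called higher. Loxl1 held the largest share in every group, 54.6% in male controls and 57.0% at 6 weeks, and 56.8% and 52.2% in females. The summed level was 19.2 ± 5.0 CPM per kb in male controls and 62.5 ± 5.9 at 6 weeks, and 17.9 ± 1.8 and 77.5 ± 20.5 in females. These shares are descriptions and were given no test.

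Among the fibulins, Efemp1 (fibulin-3) rose most. Male controls had 3.34, 4.13 and 4.41 CPM, and male hearts had 9.94, 16.1, 16.8 and 10.04 CPM at 1 week, 27.8, 27.0, 31.6 and 27.8 CPM at 3 weeks, and 39.99, 48.1 and 30.2 CPM at 6 weeks. Female controls had 2.02, 2.56, 3.35 and 3.05 CPM, and female hearts had 18.7, 18.5, 16.1 and 17.4 CPM at 1 week, 26.9, 22.1, 37.5 and 32.9 CPM at 3 weeks, and 45.1, 55, 69.3 and 41.1 CPM at 6 weeks. Within a sex, all 1-week values lay below all 3-week values, and in females all 3-week values lay below all 6-week values; in males the lowest 6-week heart lay inside the 3-week range. Against control the change went from 1.59 ± 0.18 at 1 week to 2.71 ± 0.18 and 3.14 ± 0.19 in males (adjusted p = 5.3e-10 at 6 weeks) and from 2.50 ± 0.21 to 3.21 ± 0.21 and 4.02 ± 0.21 in females (adjusted p = 6.5e-12). The 6-week hearts exceeded the 1-week hearts by 1.56 ± 0.18 in males (adjusted p = 0.00046) and 1.52 ± 0.21 in females (adjusted p = 0.00036).

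Efemp1 lies at chr11:28803150-28876825 on the plus strand of GRCm39. It was the member that rose most between weeks, so its promoter is shown with that of Fbln1, the other gene called between weeks. The RefSeq windows, on GRCm38.p6, hold the 250 bases before a transcription start. Of the 10 genes, 5 (Fbn1, Fbln1, Fbln2, Fbln5 and Efemp1) were searched. Eln, Loxl1, Loxl2 and Loxl3 had no window in the reference set. Lox was left out of the search by choice, so the search says nothing of the gene that rose most. Capitals mark the AP-1 letters TGANTCA in Efemp1 (chr11:28852955-28853204, plus strand) and the SMAD letters CAGAC, here on the minus strand, in Fbln1 (chr15:85205699-85205948, plus strand). Both strands were searched, and N stands for any base.
Efemp1: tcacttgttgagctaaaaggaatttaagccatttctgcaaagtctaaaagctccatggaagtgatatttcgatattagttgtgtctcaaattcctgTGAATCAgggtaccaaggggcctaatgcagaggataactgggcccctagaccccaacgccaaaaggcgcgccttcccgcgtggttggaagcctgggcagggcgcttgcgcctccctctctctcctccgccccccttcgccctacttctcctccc
Fbln1: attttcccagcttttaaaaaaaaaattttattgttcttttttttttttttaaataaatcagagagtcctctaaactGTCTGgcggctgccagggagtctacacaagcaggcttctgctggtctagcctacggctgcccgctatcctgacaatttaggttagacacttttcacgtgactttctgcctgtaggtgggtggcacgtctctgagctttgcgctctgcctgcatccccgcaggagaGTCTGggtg
The AP-1 letters start 154 bases before the start site of Efemp1 and were found in no other of the 5 genes, against 6.75% of all 32851 windows. The SMAD letters were found in Fbln1, 174 and 9 bases before the start shown. Another listed Fbln1 start lies 233 and 68 bases after the same matches. In Fbln5 they were found in the window chr12:101818485-101818734 and not in chr12:101819120-101819369. Of all windows 42.2% hold them. The STAT letters TTCNNNGAA were found in none of the 5 genes, against 7.02% of all windows. The 5 genes had 7 windows, so counts of genes and shares of windows are unlike measures. A match describes the letters only.

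Fbln1 (chr15:85090150-85170737, plus strand), a fibulin of vessel walls and other connective tissue that also binds fibronectin, had 68.6, 62.8 and 71.7 CPM in male controls and 62.4, 70.0, 97.8 and 89.2 CPM in female controls. At 6 weeks males had 207, 228 and 316 CPM and females 272, 471, 473 and 362 CPM, all above every control. The change at 1, 3 and 6 weeks was 1.30 ± 0.16, 1.45 ± 0.16 and 1.86 ± 0.17 in males (adjusted p = 9.3e-08 at 6 weeks) and 1.47 ± 0.19, 1.63 ± 0.19 and 2.28 ± 0.19 in females (adjusted p = 8.2e-09). In females the 6-week hearts exceeded the 1-week hearts by 0.81 ± 0.19 (adjusted p = 0.041), and this call was lost without 6-week replicate 2 (0.71, adjusted p = 0.17) or without 6-week replicate 3 (0.71, adjusted p = 0.13). It was also lost with any of the 4 replicate numbers left out of every group (adjusted p from 0.065 to 0.23) and when only the 2 groups compared were in the fit (adjusted p = 0.12). In males the same difference was 0.56 ± 0.16 and was not called (adjusted p = 0.16).

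Fbln2 (chr6:91189437-91249522, plus strand), a fibulin of heart valves and vessels, had 96.1 to 131 CPM in male controls and 95.8 to 111 CPM in female controls. At 6 weeks it had 225, 255 and 251 CPM in males and 216, 239, 393 and 219 CPM in females, with no overlap with controls. The change at 6 weeks was 1.18 ± 0.17 in males (adjusted p = 2.5e-05) and 1.33 ± 0.17 in females (adjusted p = 2.4e-06).

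Fbln5 (chr12:101712556-101785429, minus strand), which binds tropoelastin and Loxl1 and is required for elastic fiber assembly, had the smallest change against control of the 10 genes in each sex and week except in males at 6 weeks, where that of Fbn1 was smaller. Male controls had 17.4, 16.1 and 17.4 CPM and male 6-week hearts 23.2, 21.7 and 32.7 CPM. Female controls had 25, 19.6, 23.5 and 21.1 CPM and female 6-week hearts 26, 44.6, 38.5 and 30.4 CPM. The groups did not overlap, although in females the lowest 6-week heart lay close to the highest control. The change in males was 0.43 ± 0.13 at 1 week (adjusted p = 0.018), 0.51 ± 0.13 at 3 weeks (adjusted p = 0.0085) and 0.57 ± 0.14 at 6 weeks (adjusted p = 0.0055). In females it was 0.52 ± 0.19 at 1 week (adjusted p = 0.043) and 0.61 ± 0.19 at 6 weeks (adjusted p = 0.012), and at 3 weeks the change of 0.26 ± 0.19 was not called (adjusted p = 0.31). The male calls were lost when replicate number 1, 2 or 3 was left out of every group at 1 week (adjusted p = 0.082, 0.056 and 0.072) and number 2 or 3 at 3 weeks (adjusted p = 0.054 and 0.094). The male 6-week call was lost when number 4 was left out (adjusted p = 0.059) and when only the 2 groups compared were in the fit (adjusted p = 0.058). The female 1-week call was lost when number 2, 3 or 4 was left out of every group (adjusted p = 0.34, 0.053 and 0.13), and the 6-week call when number 2 was left out (adjusted p = 0.097). The change at 3 weeks in females was called when only the 2 groups compared were in the fit (adjusted p = 0.046). The female calls were also lost without the 2 libraries that held atrial genes: without 1-week replicate 2 the 1-week change was 0.35 (adjusted p = 0.18), and without 6-week replicate 2 the 6-week change was 0.48 (adjusted p = 0.056). Fbln5 was 7.01% of the summed fibulin level per kb in male controls and 3.47% at 6 weeks, and 8.65% and 3.42% in females, while Efemp1 went from 2.63% to 8.76% in males and from 1.68% to 8.32% in females.

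Elastin (chr5:134731445-134776322, minus strand), the core protein of the fiber, had its highest male mean at 1 week (178 ± 36 CPM, SD, n = 4). Eln was at 63.5, 40.4 and 80.1 CPM in male controls, 143, 202, 151 and 215 CPM at 1 week, 138, 123, 140 and 90.3 CPM at 3 weeks, and 116, 89.4 and 104 CPM at 6 weeks. Every induced male heart that was compared was above every control compared, and the 6-week heart at 89.4 CPM lay closest to the highest control. Of the 2 libraries with contradictory labels, that with 0.597 CPM of Il11 had 84.4 CPM of Eln. The other, with 511 CPM of Il11, had 60.8 CPM of Eln. Female controls had 42.5 to 52.0 CPM and induced female hearts 97.8 to 204 CPM. The change against control at 1, 3 and 6 weeks was 1.56 ± 0.22, 1.03 ± 0.22 and 0.79 ± 0.23 in males (adjusted p = 2.4e-05, 0.0018 and 0.017) and 1.46 ± 0.17, 1.40 ± 0.17 and 1.29 ± 0.17 in females (adjusted p = 1.6e-06, 2.4e-06 and 4.9e-06). The male 6-week value lay 0.77 ± 0.22 below the 1-week value, which was not called with limma (adjusted p = 0.17) and was called with DESeq2 (adjusted p = 0.046). The male 6-week call against control was lost when replicate number 1 or 3 was left out of every group (adjusted p = 0.10 and 0.12), and the male 3-week call when number 3 was left out (0.69, adjusted p = 0.073).

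Fibrillin-1 (chr2:125142514-125349913, minus strand), the microfibril scaffold, was the gene of the set called least often in males. Fbn1 was at 63.1, 83.6 and 162 CPM in male controls, 195 to 234 CPM at 1 week, 140 to 198 CPM at 3 weeks, and 141, 176 and 82.4 CPM at 6 weeks. Male groups overlapped with controls at 3 and 6 weeks. Only the 1-week change was called in males (1.12 ± 0.26, adjusted p = 0.0028), and the changes were 0.72 ± 0.26 at 3 weeks (adjusted p = 0.056) and 0.42 ± 0.28 at 6 weeks (adjusted p = 0.29). The 1-week call was lost when replicate number 1 was left out of every group (0.77, adjusted p = 0.080). With replicate number 4 left out of every group, the 3-week and 6-week changes were called (1.16, adjusted p = 0.00053, and 1.12, adjusted p = 0.0015). Without male control replicate 4 alone, the heart at 162 CPM, they were 1.11 (adjusted p = 0.0028) and 0.80 (adjusted p = 0.028), and without male 6-week replicate 4 the 3-week change was called (0.72, adjusted p = 0.026). In male control replicate 4 the summed activated fibroblast markers were at 465 CPM against 204 and 316 CPM in the other male controls and the macrophage markers at 288 CPM against 176 and 177 CPM. Its fibroblast, smooth muscle, endothelial and T cell markers were also the highest, and its cardiomyocyte markers the lowest (45780 against 52350 and 55580 CPM). The part of these markers in the result was not tested. In females Fbn1 was at 48.2 to 98.7 CPM in controls and 100 to 315 CPM after tamoxifen, with changes of 1.56 ± 0.24, 1.02 ± 0.24 and 1.36 ± 0.24 (adjusted p = 5.5e-05, 0.0029 and 0.00016), of which the 3-week call was lost when replicate number 1 was left out of every group (0.85, adjusted p = 0.060).

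**Figure D3:**
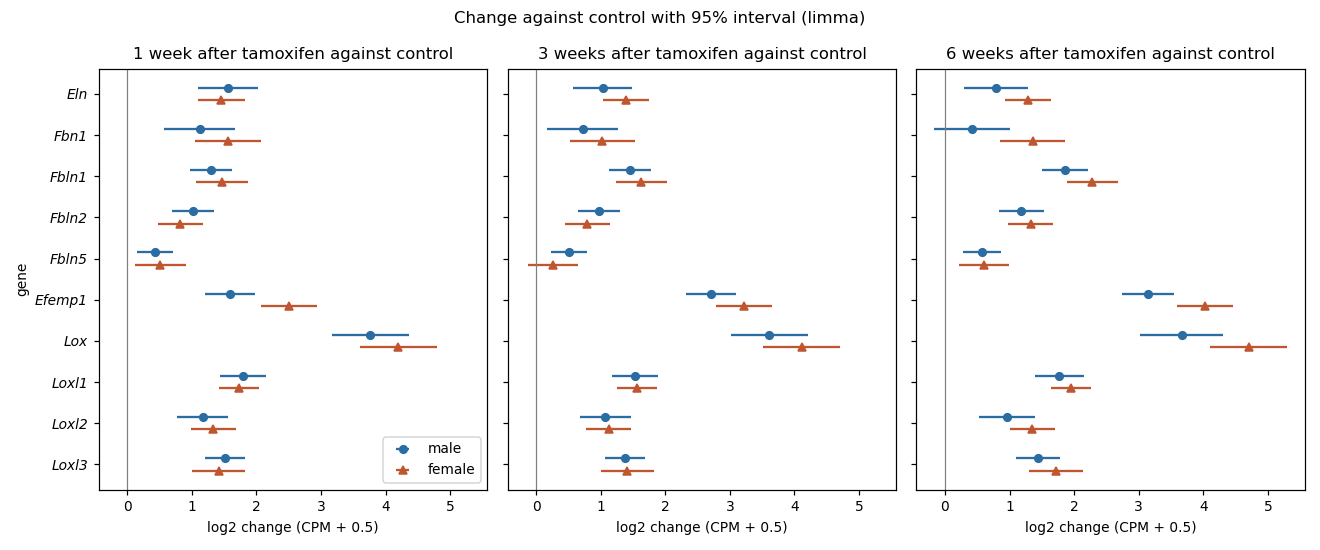
Log2 change of each gene against control at 1, 3 and 6 weeks (points) with its 95% interval from limma (lines), males in blue circles and females in orange triangles. Lox lies farthest to the right in each panel, Efemp1 moves right from 1 to 6 weeks, and the intervals that reach 0 are those of Fbn1 in males at 6 weeks and Fbln5 in females at 3 weeks.

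Uninduced hearts asked whether the set was already changed without tamoxifen, where Il11 was at 15.5 CPM or more. Controls had tamoxifen and no Il11 transgene, and uninduced hearts the reverse, so drug and transgene cannot be told apart here. In males 0 of 10 genes were called against control by limma, beside 0.561% of all genes called higher. An unadjusted p under 0.05 was found in 3 of the 10, beside 1789 of all 16931 genes tested. Of the count tests, edgeR called 0 and DESeq2 called 1 (Fbln1, adjusted p = 0.037). Counts by edgeR and DESeq2 are given in this report without a share over all genes. In females 2 of 10 were called higher, beside 2.41% of all genes. These were Lox, at 3.90, 5.24, 12.2 and 5.95 CPM (1.10 ± 0.29, adjusted p = 0.040), and Loxl1, at 51.9, 58.6, 75.3 and 70.7 CPM (0.66 ± 0.15, adjusted p = 0.014). The lowest uninduced female value of each lay above the highest control. With each replicate number left out in turn, limma called 0 or 1 of the 10 in females, the Lox call being lost each time and the Loxl1 call without number 2 or 4. When only the 2 groups compared were in the fit, neither was called (adjusted p = 0.14 and 0.058). Fbln1 was at 110 to 147 CPM in uninduced females and 93.8 to 117 CPM in uninduced males, above every control of its sex, with changes of 0.61 ± 0.19 (adjusted p = 0.10) and 0.57 ± 0.16 (adjusted p = 0.14) that were not called by limma, while DESeq2 called it in females as well (adjusted p = 0.046). Male uninduced Lox was at 10.4, 4.27, 5.28 and 4.79 CPM (0.67 ± 0.29, adjusted p = 0.41). Fbln2 went the other way. In uninduced females all its values lay below every control (80.3 to 91.25 against 95.8 to 111 CPM), and the change was not called (-0.24 ± 0.17, adjusted p = 0.54). In males it was -0.19 ± 0.16 (adjusted p = 0.72). Changes were above 0 for 6 of the 10 genes in males and 9 in females. Beside these values, the summed macrophage markers were at 252 to 376 CPM in uninduced males and 299 to 379 CPM in uninduced females, against 176 to 288 and 154 to 203 CPM in controls, and their part was not tested.

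Against uninduced hearts, 9 of 10 genes were called higher at 6 weeks in males and 10 of 10 in females, beside 13.0% and 13.7% of all genes. These groups differ in tamoxifen as well as in Il11 level, and their parts cannot be told apart. The change of Lox was 2.99 ± 0.29 in males (adjusted p = 4.1e-07) and 3.61 ± 0.29 in females (adjusted p = 1.4e-08), and that of Efemp1 was 2.94 ± 0.18 (adjusted p = 3.1e-09) and 3.53 ± 0.21 (adjusted p = 3.0e-10). Fbn1 in males was the exception, at 0.14 ± 0.26 (adjusted p = 0.75). The weakest calls were Fbln5 in males (0.39 ± 0.13, adjusted p = 0.046), lost without male 6-week replicate 4 (0.21, adjusted p = 0.27), without male control replicate 4 (0.39, adjusted p = 0.056) and with any of the 4 replicate numbers left out of every group (adjusted p from 0.062 to 0.43), and Fbln5 in females (0.55 ± 0.19, adjusted p = 0.038), lost without female 6-week replicate 2 (0.42, adjusted p = 0.14) or 3 (0.49, adjusted p = 0.096) and with replicate number 2 or 3 left out of every group (adjusted p = 0.18 and 0.28). The female call of Fbn1 (0.84 ± 0.24, adjusted p = 0.016) was also lost without female 6-week replicate 3 (0.56, adjusted p = 0.068) and with replicate number 1 or 4 left out of every group (adjusted p = 0.071 and 0.051). When only the 2 groups compared were in the fit, these 3 calls were lost (adjusted p = 0.11 and 0.12 for Fbln5 in males and females and 0.051 for Fbn1).

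Few genes separated the induced weeks from each other. At 3 against 1 week, 1 of 10 was called in males (Efemp1, 1.12 ± 0.17, adjusted p = 0.018), beside 0.0118% of all genes called higher. In females limma called 0 of 10, beside 0.165%, and edgeR and DESeq2 called 0. There 2 of the 10 had an unadjusted p under 0.05, beside 1699 of all 16956 genes tested. At 6 against 1 week, 1 of 10 was called in males (Efemp1), beside 0.13% of all genes, and 2 of 10 in females (Efemp1 and Fbln1), beside 0.891%. With only the 2 groups compared in the fit, the male Efemp1 calls were lost (adjusted p = 0.14 at 3 against 1 week and 0.083 at 6 against 1 week). The male call at 3 against 1 week was also lost with any of the 4 replicate numbers left out of every group (changes from 1.01 to 1.25, adjusted p from 0.087 to 0.27). At 6 against 3 weeks limma called 0 of 10 in each sex, as it called 0.0% of all genes. An unadjusted p under 0.05 was found in 2 of the 10 in males and 4 in females. Over all genes it was found in 1072 of 16931 and 2572 of 16956. Here edgeR called none and DESeq2 called 1 in females (Efemp1, adjusted p = 0.028). Lox differed from 1 to 6 weeks by -0.10 ± 0.29 in males and 0.51 ± 0.29 in females, with 95% intervals from -0.70 to 0.50 and from -0.09 to 1.10.

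The sexes were compared by the difference of their changes against control in a fit to 16627 genes. The sexes were deposited in separate tables, so sex and table cannot be told apart. None of the 10 differed at 1, 3 or 6 weeks by limma, as for 0.0% of all genes. An unadjusted p under 0.05 was found in 1, 0 and 3 of them, beside 2908, 691 and 2886 of all 16627 genes. By edgeR 0 were called at any week. At 6 weeks the change in males minus that in females was below 0 for all 10, from -0.04 ± 0.25 for Fbln5 to -1.04 ± 0.45 for Lox (adjusted p = 0.23). Over all genes its median was 0.015, with quartiles of -0.22 and 0.27. The 10 values come from the same hearts, so their shared direction is not independent. Male control replicate 4 and female 6-week replicate 3 were each the highest of their group in 9 of the 10, and the direction without them is not given here. Fbn1 differed by -0.94 ± 0.39 (adjusted p = 0.22) and Efemp1 by -0.88 ± 0.30 (adjusted p = 0.16). At 1 week Efemp1 differed by -0.91 ± 0.29 (adjusted p = 0.098), and DESeq2 called this difference (adjusted p = 0.047).

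**Figure D4:**
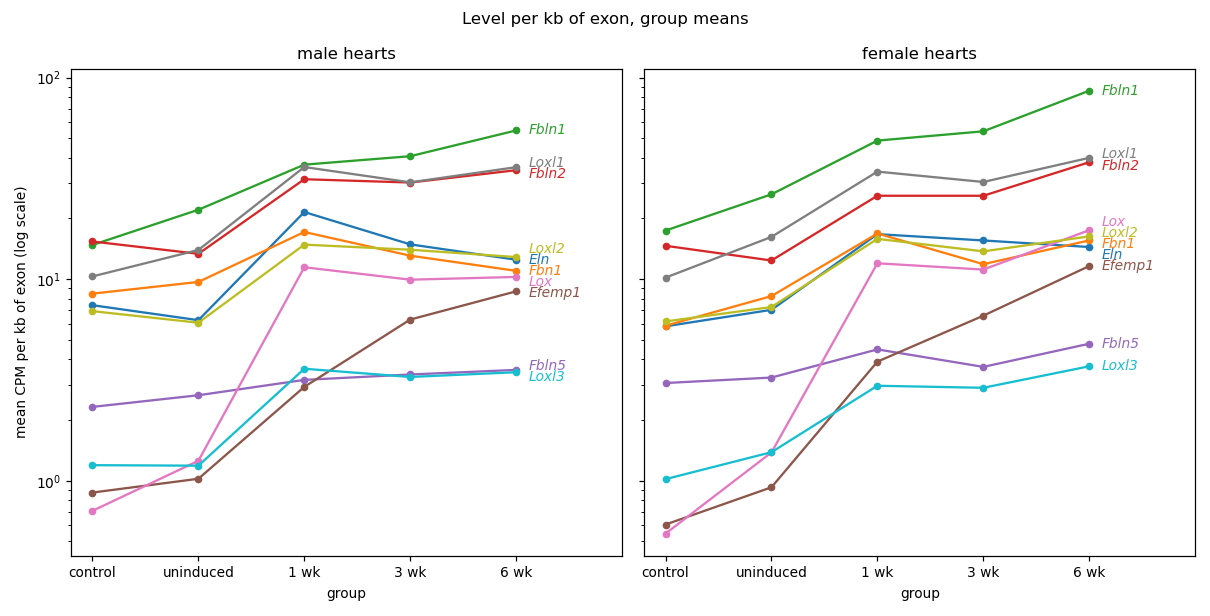
Mean level per kb of exon of each gene by group on a log axis, males left and females right; lines join the group means of a gene. Lox goes from the lowest level in controls (0.709 and 0.547 CPM per kb) to 10.3 and 17.5 at 6 weeks, and Fbln1 is the highest at 6 weeks in both sexes.

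The order of the levels changed with induction. Per kb of exon, Fbln2 (15.4 ± 2.8 CPM per kb) and Fbln1 (14.8 ± 1.0) were the highest in male controls, followed by Loxl1 (10.3 ± 1.8), Fbn1 (8.48 ± 4.30), Eln (7.43 ± 2.41) and Loxl2 (6.94 ± 3.05), and among these neighbours only Fbln1 and Loxl1 had ranges that did not overlap. Fbln5, Loxl3, Efemp1 and Lox followed, at 2.32, 1.20, 0.874 and 0.709 CPM per kb, and Efemp1 and Lox overlapped. In female controls Fbln1 (17.4 ± 3.6) came before Fbln2 (14.6 ± 0.9), with ranges that overlapped, and Lox (0.547 ± 0.123) was again last. At 6 weeks Fbln1 led at 54.7 ± 12.6 in males and 86.1 ± 21.2 in females, then Loxl1 (35.9 ± 9.1 and 39.99 ± 7.8) and Fbln2 (34.7 ± 2.3 and 38.0 ± 12.1). Lox was 7th in males at 10.3 ± 2.1 and 4th in females at 17.5 ± 7.3, with ranges that overlapped those of its neighbours. Fbln5 (3.55 and 4.78) and Loxl3 (3.46 and 3.70) were then the lowest pair in both sexes.

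Most of the genes called at 6 weeks in 5 lists of functional partners were higher than control. Of 16 microfibril and elastic fiber partners, 8 were called higher and 3 lower in males and 8 higher and 2 lower in females. Of all genes tested at 6 weeks, 16.2% in males and 21.7% in females were called higher and 10.9% and 21.0% lower, and the counts of each list below stand against these shares. Efemp2 (fibulin-4), which brings lysyl oxidase to elastin, went from 6.85 ± 1.30 to 39.7 ± 3.5 CPM in males (2.46 ± 0.19, adjusted p = 1.2e-08) and from 9.12 ± 0.73 to 53.7 ± 9.8 CPM in females (2.48 ± 0.18, adjusted p = 1.0e-09). Emilin1, an elastin-associated glycoprotein, rose by 2.01 ± 0.17 and 2.50 ± 0.19. Fbln7 was at 0.141 and 0.170 CPM in male and female controls and 2.17 and 3.55 CPM at 6 weeks. Ltbp4, which binds fibulins and latent TGFβ, was called lower in both sexes at the same earlier week. It did not pass the test at 6 weeks (-0.20 ± 0.19, adjusted p = 0.46, and -0.32 ± 0.17, adjusted p = 0.15).

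Of the lysyl oxidase partners, 7 were called higher and 1 lower of 10 in males and 8 higher and 0 lower of 9 in females, beside 16.2% and 21.7% of all genes called higher. Loxl4, the fifth family member, was at 1.03 and 0.628 CPM in male and female controls and rose by 1.59 ± 0.21 and 1.83 ± 0.26 (adjusted p = 1.5e-05 and 1.2e-05). Bmp1, the protease that cleaves the Lox propeptide, went from 46.9 ± 6.0 to 205 ± 12.7 CPM in males (adjusted p = 1.4e-09) and from 52.5 ± 3.9 to 183 ± 30.2 CPM in females (adjusted p = 2.2e-08). Fibronectin (Fn1) rose by 3.53 ± 0.32 and 4.21 ± 0.27, and periostin (Postn) by 1.71 ± 0.48 and 2.44 ± 0.30. The copper carriers varied: Atox1 was called higher in both sexes (0.67 ± 0.18 and 0.32 ± 0.11), Atp7a in females (0.97 ± 0.28) and Slc31a1 in neither (-0.17 ± 0.11 and -0.12 ± 0.09).

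Among substrates and lysyl hydroxylases, 5 of 7 were called higher in each sex, beside the same 16.2% and 21.7% of all genes. Col3a1, a fibrillar collagen, rose by 3.72 ± 0.28 in males and 4.08 ± 0.20 in females, and Col1a1 by 2.99 ± 0.29 and 3.25 ± 0.25. Plod1, a lysyl hydroxylase, was called lower in both sexes at 1 week. At 6 weeks it fell by 0.40 on the log2 scale in females (adjusted p = 0.00055) and was at -0.40 ± 0.16 in males (adjusted p = 0.068). Of the elastin-degrading proteases tested, 4 of 5 were called higher in males and 6 of 6 in females (16.2% and 21.7% of all genes). The gelatinase Mmp9 went from 0.525 ± 0.423 to 26.5 ± 4.3 CPM in males and from 0.788 ± 0.323 to 33.8 ± 14.2 CPM in females, and cathepsin S (Ctss), a macrophage protease, rose by 2.29 ± 0.22 and 3.30 ± 0.13. Of 8 genes of the elastin receptor complex and of integrins, 5 in males and 7 in females were called higher (16.2% and 21.7% of all genes). Itgb8, which binds latent TGFβ, rose by 2.00 ± 0.25 and 2.82 ± 0.27, and Itgb3 by 1.20 ± 0.21 and 0.50 ± 0.17.

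In bulk tissue, more cells of a type and more RNA per cell cannot be told apart. The markers of several cell types moved with the set, and their counts at 6 weeks stand beside 16.2% and 21.7% of all genes called higher in males and females and 10.9% and 21.0% called lower. Of 6 fibroblast markers, 4 were called higher and 1 lower (Gsn, -1.21 ± 0.21 in males and -1.52 ± 0.16 in females) at 6 weeks in each sex. Their summed level was 1168 to 1262 CPM in male controls and 1448 to 1660 CPM at 6 weeks, and 1589 to 1774 and 1669 to 2616 CPM in females. Mean Gsn, a large part of the control sum, went from 857 to 372 CPM in males and from 1194 to 428 CPM in females. Mean Dcn, called higher, went from 255 to 756 CPM in males and from 320 to 967 CPM in females. Of 6 markers of activated fibroblasts, 4 in males and 5 in females were called higher, with sums of 204 to 465 CPM in male controls and 1120 to 1312 CPM at 6 weeks, and 251 to 480 and 1306 to 2662 CPM in females. Col1a1 makes up much of this sum, and Col1a1, Postn and Ltbp2 also stand in the partner lists. All 6 macrophage markers were called higher in each sex, with sums of 176 to 288 CPM in male controls and 711 to 1011 CPM at 6 weeks, and 154 to 203 and 874 to 1002 CPM in females. None of the 6 smooth muscle markers was called higher, and 1 in males (Myocd) and 2 in females (Smtn and Myocd) were called lower. Their sum was 352 to 481 CPM in male controls and 263 to 371 CPM at 6 weeks, and 362 to 513 and 239 to 316 CPM in females. Acta2 stands both in this list and in that of activated fibroblasts. Of 6 endothelial markers 0 were called higher and 3 in males and 5 in females lower. Among the other lists, 2 of 5 pericyte markers were called lower in each sex, 1 of 6 cardiomyocyte markers in males and 2 in females were called lower, 0 of 4 mesothelial markers in males and 3 in females were called higher, and 1 of 3 T cell markers tested in males and 3 of 4 in females were called higher. The 2 neutrophil markers tested were not called in either sex, and no adipocyte marker was listed. No marker of fibroblasts, macrophages, smooth muscle or endothelium was at 0 in any library. In female 6-week replicate 3, the library highest in 9 of the 10 genes, the activated fibroblast markers were at 2662 CPM against 1306 to 1770 CPM in the other 6-week females. Its pericyte (889 against 569 to 684 CPM), endothelial (732 against 531 to 576 CPM), macrophage, mesothelial and T cell markers were also the highest, and its fibroblast markers were not. In female 3-week replicate 2, the lowest in all 10, activated fibroblast markers were at 810 CPM against 1379 to 1561 CPM in the other 3-week females. Its fibroblast, smooth muscle, endothelial, macrophage, mesothelial, neutrophil and T cell markers were also the lowest, and its cardiomyocyte markers the highest. The part of these cell types in the results was not tested.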

How the data were processed

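RNA sequencing of poly(A) RNA was used (strand-specific kit). The paper gives the tissue as the left ventricle, and the sample titles say heart. The authors aligned reads to GRCm39 with Ensembl annotation using STAR and counted genes with featureCounts. The deposited values, 1 table for each sex, are named CPM and were treated as a normalized signal. In each library the values are whole multiples of what 1 read is worth, within 0.001 for all values, so whole reads were recovered for depth and for count tests. The libraries do not all sum to the same total. Female controls summed to 1181923 to 1196278 and female 6-week hearts to 848402 to 942588. Male controls summed to 1063756 to 1193422 and male 6-week hearts to 906746 to 1165099. The strand setting of the counting is not given in the sources used here. Male and female tables were normalized separately and each test was run within a table, except the comparison of the sexes.

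Genes at 0.5 CPM or more in at least 3 libraries were kept (16931 in males, 16956 in females). Values were tested as log2(CPM + 0.5) with limma 3.58.1 in R 4.3.3 (trend), with all 5 groups of a sex in a single fit, two-sided, and p adjusted by Benjamini-Hochberg over all genes tested. The difference between the sexes was an interaction in a fit to both tables. All 10 genes are named in the text, and partner genes were named when called in both sexes at the same week (the 2 largest at 6 weeks for each list and direction), or to describe a role beside a member. The members, the partner lists and the marker lists were chosen with earlier results of these data known. The fit was tested on simulated data.

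Group came from the labels. The replicates are separate hearts by label. No replicate pair agreed within sampling noise (lowest chi-square per gene 7.04 over 54 pairs). Alternatives were another pseudocount, no filter, edgeR 4.0.16 and DESeq2 1.42.0 on recovered reads, only the 2 groups compared, a 2-fold limit, the replicate number as a block, and leaving out libraries. Levels per kb divide CPM by the exon length of the gene in GENCODE. Each group held 3 or 4 hearts. Positions are on GRCm39 and promoters are from RefSeq on GRCm38.p6.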

Additional observations from a re-analysis of the deposited data

Results flagged for a closer look

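In 5 of the 80 sets of 4 hearts examined (10 genes in the groups that have 4 hearts), a single heart stood apart from the others by Dixon's test, and chance alone gives about 1 in 20, or 4. Fbln2 was at 154 CPM in male 1-week replicate 4, below the other 3 hearts at 236 to 250 CPM. Eln was at 71.1 CPM and Loxl3 at 8.51 CPM in female uninduced replicate 3, above the other uninduced females. Fbn1 was at 236 CPM in female 1-week replicate 2, the library with atrial transcripts, against 191 to 196 CPM in the others. Fbln2 was at 393 CPM in female 6-week replicate 3, against 216 to 239 CPM.

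The 2 male libraries with contradictory labels entered no comparison, and Il11 was read in both. The library with a 6-week title and a control description had 0.597 CPM of Il11, and the library with a control title and a 6-week description had 511 CPM, against at most 0.146 CPM in the 3 male controls.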

How the results depend on the processing

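Of 3210 values of single genes under other settings, 3138 kept their direction and their side of the threshold, 59 lost their call, 13 gained one and 0 called values reversed; 79 values that were called in neither setting had another sign. The counts that moved by more than 1.5 times are given first, and the causes were not tested. With only the 2 groups compared in the fit, males had 1 called in uninduced against control, 0 at 3 against 1 week and 0 at 6 against 1 week, and females had 0 in uninduced against control and 1 at 6 against 1 week. DESeq2 called 1 in uninduced males, 2 at 6 against 1 week in males, 1 at 6 against 3 weeks in females and 1 in the difference between the sexes at 1 week. In females, uninduced against control gave 1 with a pseudocount of 2 and 1 with the 2-fold limit, and 6 against 1 week gave 1 with a pseudocount of 0.1 and 1 with the 2-fold limit. With each replicate number left out in turn, counts ran from 0 to 1 for uninduced males, were 0 at 3 against 1 week in males, ran from 0 to 1 for uninduced females, and were 1 at 6 against 1 week in females; this last count was also 1 without female 6-week replicate 3 alone or female 6-week replicate 2 alone, which were alternatives added after the data were seen, as was leaving out alone any of the other libraries named in the report. With only the 2 groups compared in the fit, counts that moved less were 8 at 6 weeks against control and 8 against uninduced in males, where 9 were called in each, and 10 at 3 weeks against control, where 9 were called, and 8 at 6 weeks against uninduced, where 10 were called, in females. DESeq2 called 3 in uninduced females. With replicate numbers left out, the counts against control ran from 7 to 10 in induced males and from 8 to 10 in induced females. Replicate numbers do not pair the samples (mean correlation 0.013 in males and 0.025 in females, with 5 of 18 and 9 of 20 libraries correlating best with their own number), and with the replicate block the counts were as in the main test, except 9 of 10 in females at 1 week. Each of the 10 genes was at or above 1.94 CPM in every library, and each group held 3 or 4 hearts.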

Other observations

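The set was also measured in the 2 male libraries with contradictory labels. The library with a 6-week title and a control description had 5.53 CPM of Lox, 5.93 CPM of Efemp1, 88.7 CPM of Fbln1 and 84.4 CPM of Eln. The library with a control title and a 6-week description had 68.8 CPM of Lox, 51.4 CPM of Efemp1, 219 CPM of Fbln1 and 60.8 CPM of Eln. Loxl1 was at 47 and 121 CPM, Loxl2 at 34.5 and 87.6 CPM, Loxl3 at 5.65 and 12.5 CPM, Fbn1 at 92.7 and 178 CPM, Fbln2 at 124 and 247 CPM, and Fbln5 at 21.4 and 35.0 CPM in the first and the second library.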
